A study of Arabidopsis thaliana with 41 samples.

Results

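Leaf transcript levels of the Arabidopsis thaliana accession Got-22 were compared with those of the accession Ag-0 in well-watered soil, over 6 of the 41 arrays of the data set, chosen by their labels: 3 arrays of Got-22 and 3 of Ag-0. Plants grew with 1 per pot in about 150 ml of ceramic medium under a 10 h photoperiod, and the wet pots were kept near 90% of their available water through the days in which the other pots dried. No transgene, mutation or chemical was used in either accession. The same accessions were also grown in soil dried stepwise to about 50% of available water, with 3 Got-22 and 2 Ag-0 arrays, and each difference was also measured on these 5 arrays. The other 5 accessions (Bil-5, Eden-1, Omo2-3, Tamm-2 and Ull2-5), with 15 wet arrays, are used below only to show where Got-22 and Ag-0 lie among them.

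Natural accessions are inbred lines descended from wild plants, and growing them side by side shows how their transcript levels differ in a common environment. A well-studied case in leaves is the glucosinolate system, in which sulphur-rich compounds are stored intact and are cut by myrosinases when tissue is crushed. The accession decides which side chain the compounds carry and whether their breakdown gives isothiocyanates or nitriles, through a small set of variable loci.

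All values are log2 array values for 1 locus on 1 array, and a difference of 1 log2 unit is a doubling. Levels of different loci are not compared, because probes differ in brightness. Accessions also differ in sequence, so few transcripts and weak binding to the probes can both give a low value, and in whole leaves fewer cells of a type cannot be told apart from less RNA per cell. Over all loci, arrays of the same accession correlated at 0.981 to 0.989 in Got-22 and 0.985 to 0.987 in Ag-0, and arrays of different accessions at 0.967 to 0.977. As a check of the leaf label, array means of the photosynthesis loci were 11.94 to 12.33 in Got-22 and 12.45 to 12.67 in Ag-0, high in the range of the table. All 8 measured flower markers lay below the 25th percentile of the table (4.38), though probe brightness limits what such levels show.

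Limma called 589 of 21164 loci (2.78%) at a Benjamini-Hochberg adjusted p under 0.05, 297 higher (1.4%) and 292 lower (1.38%) in Got-22. Without adjustment, limma gave 2790 of the 21164 loci a p under 0.05, the background for wet list counts of that kind below. Differences were mostly moderate, with a median size of 0.89 log2 units (1.86-fold) among called loci and 0.12 over all loci. Of the called loci 240 (1.13%) differed by at least 1 log2 unit, 111 of them higher (0.524%) and 129 lower (0.61%) in Got-22, and 21 and 29 differed by at least 2 units. The 3 Got-22 arrays did not overlap the 3 Ag-0 arrays at 578 of the 589 called loci, while 20.4% of all loci had no overlap, so separation of the arrays alone is common in this data set.

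**Figure D1:**
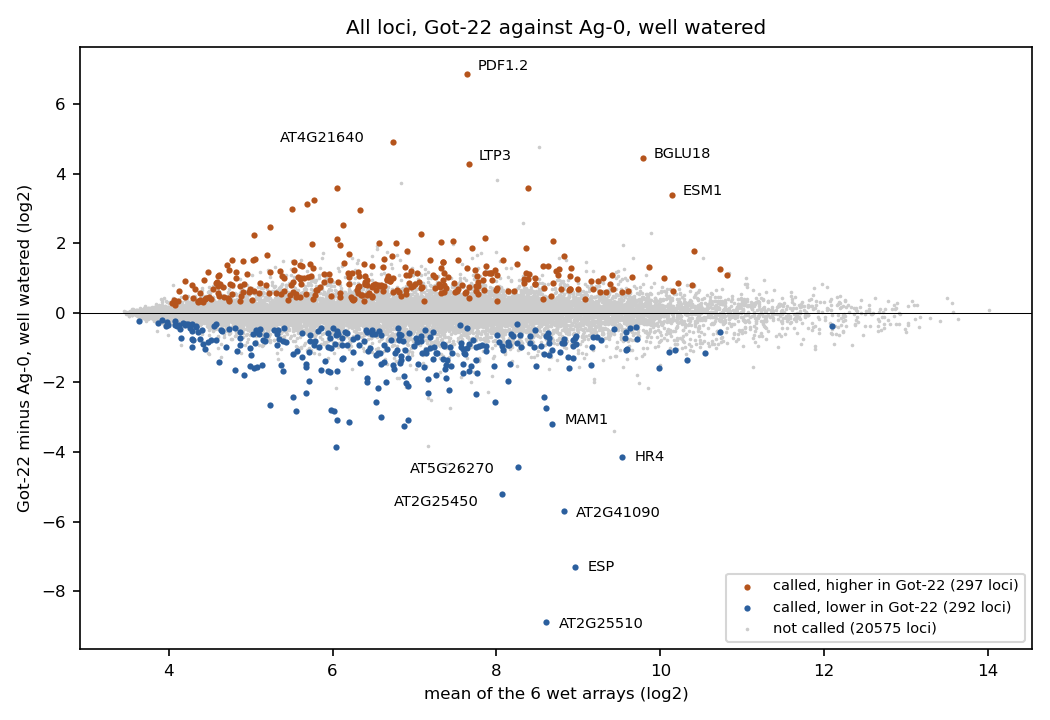
Each point is 1 of 21164 loci; the horizontal axis is its mean over the 6 wet arrays and the vertical axis is Got-22 minus Ag-0 in well-watered soil, both in log2 units. The 297 called loci higher in Got-22 are orange, the 292 called loci lower in Got-22 are blue and the others grey; AT2G25510 at -8.88 and PDF1.2 at 6.86 are the extremes among called loci.

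Transcript values of the glucosinolate breakdown loci ESP and ESM1 separated the accessions. ESP (AT1G54040), the epithiospecifier protein that turns breakdown towards nitriles, had log2 values of 5.21, 5.36 and 5.32 in Got-22 and 12.64, 12.62 and 12.55 in Ag-0. The 3 Got-22 arrays were thus far below all Ag-0 arrays, with almost no spread within either accession. The difference was -7.31 ± 0.31 (SE, n = 3 and 3; limma adjusted p = 3.21e-16), the smallest p of the whole comparison. Got-22 also stood apart from the other 5 accessions, whose means were 11.42 to 12.23. On dry arrays the Got-22 values were 6.69, 5.56 and 5.47 and the Ag-0 values 12.38 and 12.75.

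ESM1 (AT3G14210), the epithiospecifier modifier that favours isothiocyanates, went the other way. It read 11.61, 12.12 and 11.77 in Got-22 and 8.63, 8.25 and 8.46 in Ag-0, without overlap. The difference was 3.39 ± 0.63 (SE; limma adjusted p = 0.00126) on wet arrays and 3.83 ± 0.70 on dry arrays (limma adjusted p = 0.00158). Means of the other 5 accessions ran from 6.39 to 8.05, so Got-22 was the highest and Ag-0 the next of the 7.

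BGLU18, also called in the breakdown list, is a beta-glucosidase of endoplasmic reticulum bodies that is known mainly for releasing abscisic acid from its glucose ester. Its values were 13.14, 12.01 and 10.91 in Got-22 and 8.48, 9.23 and 4.97 in Ag-0, without overlap but with a wide spread. The difference of 4.46 ± 1.25 (SE) passed narrowly (limma adjusted p = 0.0468) and lost its call without any wet array other than Ag-0 replicate 2 and on wet arrays alone (limma adjusted p up to 0.3). Of 17 listed breakdown loci 8 were measured, and of these 2 were higher and 1 lower in Got-22 (37.5% called, against 2.78% of all loci). ESP and ESM1 were listed as loci known to vary between accessions, and glucosinolate breakdown itself was not measured. The nitrile-specifier locus NSP5 differed by -0.66 ± 0.26 (limma adjusted p = 0.219) and PEN2, an atypical myrosinase of pathogen defence, by 0.25 ± 0.23 (0.74).

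**Figure D2:**
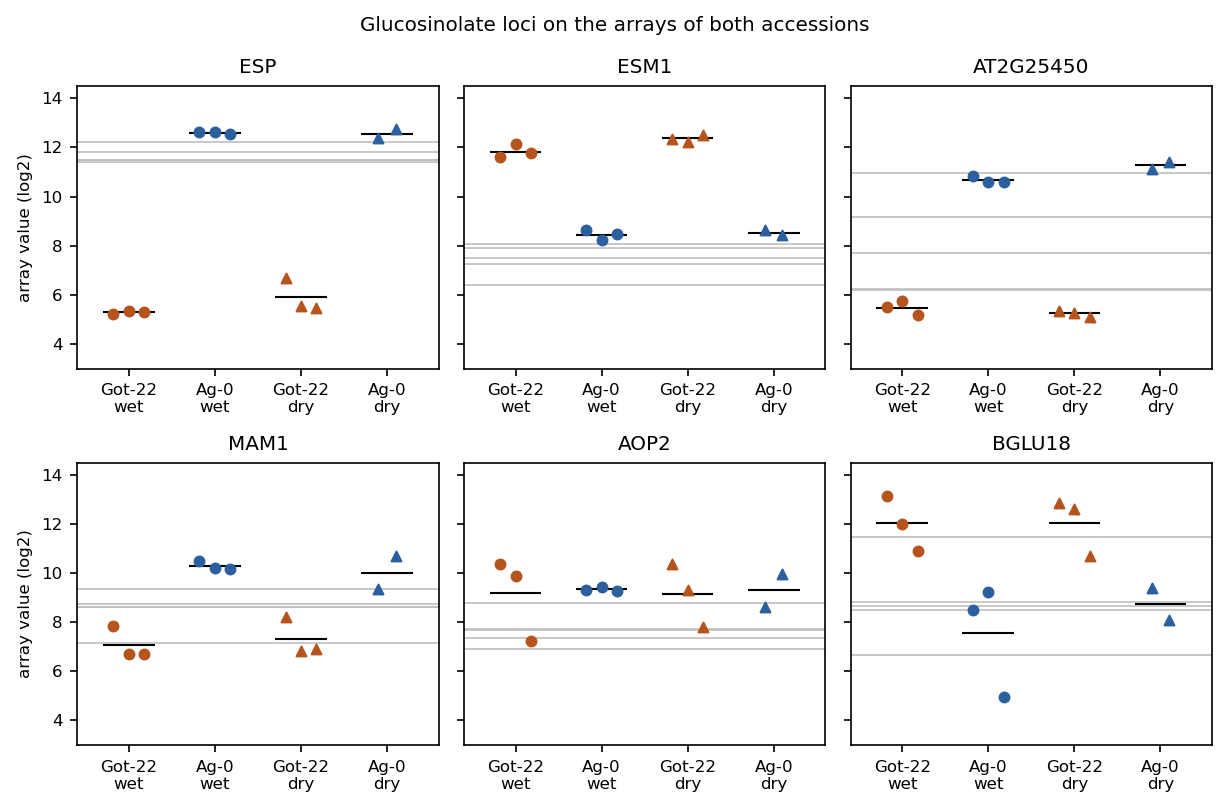
Array values (log2) of 6 glucosinolate-list loci for Got-22 (orange) and Ag-0 (blue) on wet (circles) and dry (triangles) arrays; black bars are group means and grey lines the wet means of the other 5 accessions. ESP and AT2G25450 are low in Got-22 at both water levels, ESM1 is high, and AOP2 overlaps.

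Among loci of aliphatic glucosinolate synthesis, 0 of 32 measured were higher and 3 were lower in Got-22 (9.38% called, against 2.78% of all loci). AT2G25450 had values of 5.51, 5.74 and 5.17 in Got-22 and 10.82, 10.59 and 10.61 in Ag-0. All 3 Got-22 arrays lay below all Ag-0 arrays, by -5.20 ± 0.70 (SE; limma adjusted p = 1.64e-05), and by -6.03 ± 0.79 on dry arrays. The other 5 accessions were spread between them, with means of 6.21 to 10.97.

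MAM1 (AT5G23010), a methylthioalkylmalate synthase that lengthens the methionine side chain, read 7.83, 6.72 and 6.70 in Got-22 and 10.48, 10.19 and 10.16 in Ag-0. Got-22 was the lowest and Ag-0 the highest of the 7 accessions. The difference was -3.19 ± 0.85 (SE; limma adjusted p = 0.0348), but its call ended without any wet array other than Got-22 replicate 1 and on the 21 wet arrays alone (limma adjusted p up to 0.136); on dry arrays it was -2.71 ± 0.95 (0.206). The homologous enzyme next to it on the chromosome, IMS2, differed by 0.95 ± 0.56 (limma adjusted p = 0.517) with overlapping arrays. FMO GS-OX2, which oxidises the side-chain sulphur and was also lower in Got-22, differed by only -0.31 ± 0.09 near the array floor (limma adjusted p = 0.0422). Its call ended without Got-22 wet replicate 2 or 3 or Ag-0 wet replicate 1 or 2, with adjusted p up to 0.357 over all alternatives.

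The side-chain loci AOP2 and AOP3, which set alkenyl or hydroxyalkyl forms, did not pass. AOP2 had values of 10.38, 9.89 and 7.25 in Got-22, which enclosed its Ag-0 mean of 9.33 ± 0.09 (SD, n = 3), and differed by -0.16 (limma adjusted p = 0.977). AOP3 averaged 4.72 in both and lay near the array floor. The core regulator MYB28 differed by 0.62 ± 0.38 (0.535) and the C-S lyase gene SUR1 by 0.74 ± 0.33 (0.321). The median difference of the aliphatic list was 0.19 on wet and -0.04 on dry arrays, and its array means overlapped, at 6.66 to 7.51 in Got-22 and 7.18 to 7.25 in Ag-0. In the list of indole glucosinolates and camalexin 0 of 22 loci were called by limma, with 4 at an unadjusted p under 0.05 and a median of 0.38, and its regulator MYB51 had the smallest adjusted p (0.96 ± 0.33; 0.143).

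The largest difference of all was at AT2G25510, which has no symbol in the gene table used. It read 4.02, 4.35 and 4.14 in Got-22 and 12.64, 13.05 and 13.45 in Ag-0, a difference of -8.88 ± 0.90 (SE; limma adjusted p = 8.01e-08). Got-22 was at the array floor, and so its size is not exact. The other accessions fell on either side: Bil-5 averaged 13.07, Ull2-5 12.93 and Tamm-2 12.27, but Eden-1 averaged 4.55 and Omo2-3 4.60.

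AT2G41090 was low in Got-22 alone among the 7 accessions. It read 6.14, 4.86 and 6.91 in Got-22 and 10.98, 12.01 and 12.02 in Ag-0, with means of 11.43 to 12.40 in the others. The difference was -5.70 ± 0.46 (SE; limma adjusted p = 1.07e-09) on wet and -5.87 ± 0.52 on dry arrays. The opposite arrangement, high in Ag-0 alone, held for AT5G26270, with 5.96, 6.11 and 6.07 in Got-22, 9.86, 10.73 and 10.81 in Ag-0 and means of 5.83 to 6.12 elsewhere (-4.42 ± 0.20, SE; limma adjusted p = 6.28e-16).

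Over the 240 loci with at least 1 log2 unit, the wet means of all 5 other accessions were nearer to Ag-0 at 45 loci and nearer to Got-22 at 41, and at the remaining loci they were divided. Got-22 was thus at one end of the 7 at these 45 loci and Ag-0 at these 41, however small the gap to the next accession. Got-22 and Ag-0 were the highest and the lowest of the 7 at 153 of the 589 called loci. Both sets were chosen for a difference between Got-22 and Ag-0, which itself favours the ends of the 7. The same counts were not made over all loci.

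**Figure D3:**
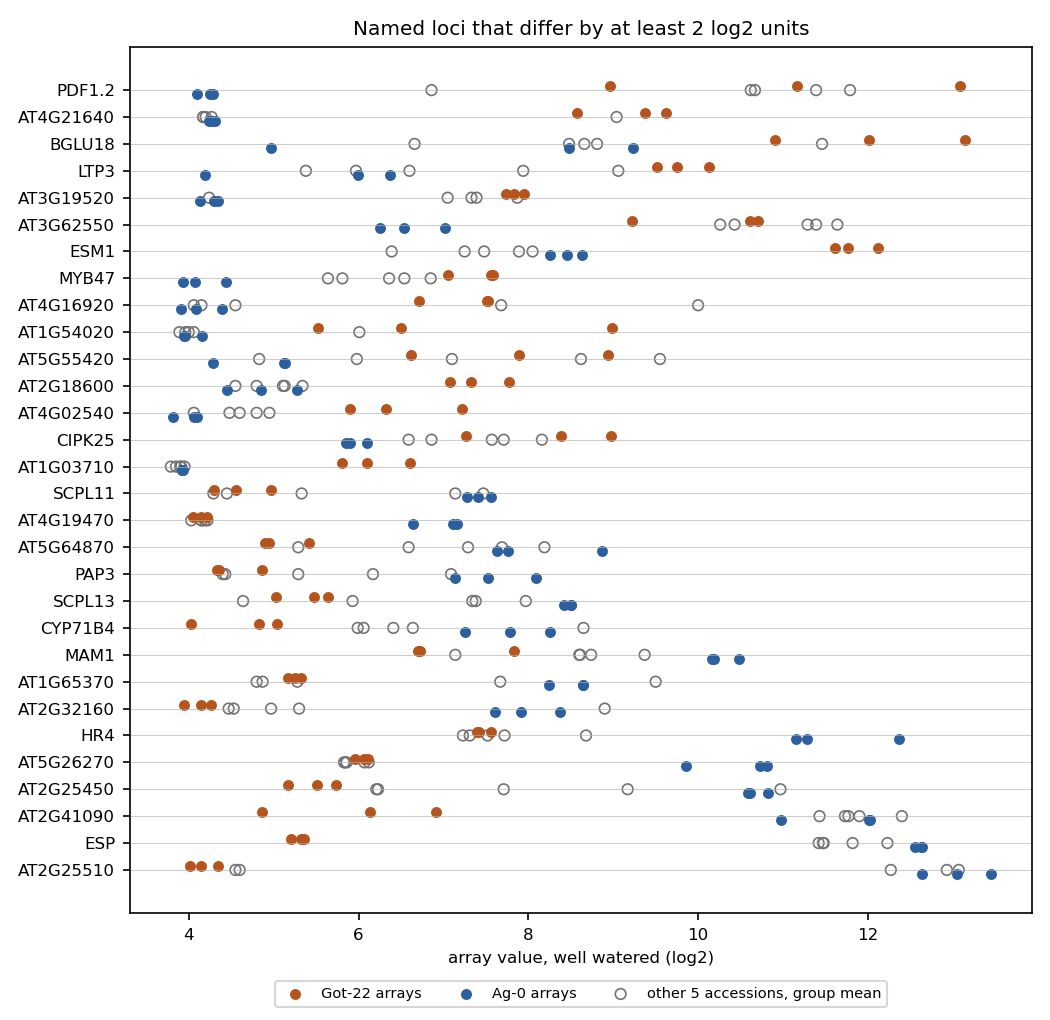
Well-watered array values (log2) of the 30 named loci that differ by at least 2 log2 units, ordered from higher to lower in Got-22; orange points are the 3 Got-22 arrays, blue points the 3 Ag-0 arrays and open circles the means of the other 5 accessions. At ESP and AT2G41090 Got-22 stands alone, at AT5G26270 and HR4 Ag-0 does.

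Resistance loci differed member by member. HR4, a homologue of the RPW8 mildew resistance proteins, read 7.42, 7.40 and 7.56 in Got-22 and 11.28, 11.15 and 12.37 in Ag-0. Ag-0 was the highest of the 7 accessions and the other means were 7.23 to 8.68. The difference was -4.14 ± 0.32 (SE; limma adjusted p = 2.88e-10) and -3.81 ± 0.35 on dry arrays. CSA1, a TIR-type nucleotide-binding leucine-rich repeat receptor, was higher in Got-22, with 7.99, 8.01 and 7.39 against 5.68, 6.16 and 6.20 in Ag-0 (1.78 ± 0.26, SE; limma adjusted p = 5.13e-05). WRR4, a receptor of the same type that acts against white rust, was lower, with 5.61, 5.96 and 6.23 in Got-22 and 7.30, 7.17 and 8.19 in Ag-0 (-1.62 ± 0.37; limma adjusted p = 0.0115).

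The WRR4 call ended without Got-22 wet replicate 1, without Ag-0 wet replicate 3 and on the 6 arrays alone, with adjusted p up to 0.107, while on dry arrays the difference was -2.74 ± 0.42 (limma adjusted p = 0.000148). Of the 31 measured loci of the immune receptor list, which also holds HR4, 1 was higher and 2 were lower. This was 9.68% called, against 2.78% of all loci, and the list median was 0.04. The list is a selection, and receptor loci outside it were not counted by direction. WRKY19, whose protein joins receptor, WRKY and kinase domains, was the 1 called of 58 WRKY loci (1.72%, against 2.78% of all loci). It was lower in Got-22 by -1.50 ± 0.28 (SE; limma adjusted p = 0.00137, and 0.118 on the 6 arrays alone).

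Of 44 receptor-like proteins, cell-surface receptors without a kinase domain, 3 were higher and 0 lower in Got-22 (6.82% called, against 2.78% of all loci). Such small list counts, here and below, were not tested against the share over all loci. RLP54 was the largest, with 9.0, 8.81 and 9.08 in Got-22 and 7.40, 7.25 and 7.96 in Ag-0 (1.42 ± 0.26, SE; limma adjusted p = 0.00106). Ag-0 was the lowest of the 7 accessions at this locus. RLP16 differed by 0.75 ± 0.18 (limma adjusted p = 0.0168, and up to 0.137 without Got-22 wet replicate 1, without Ag-0 wet replicate 1 or 2, or on the 6 arrays alone). RLP52, near the floor, differed by 0.58 ± 0.10 (0.000747, and 0.211 on the 6 arrays alone). On dry arrays RLP54 differed by 1.68 ± 0.29 (limma adjusted p = 0.000846), RLP16 by 0.61 ± 0.20 (0.159) and RLP52 by -0.12 ± 0.12 (0.834). Among the wall-associated kinases limma called 0 of 10, with 2 at an unadjusted p under 0.05.

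Defence hormone lists showed little beyond PDF1.2, a plant defensin used as a marker of jasmonate and ethylene signalling. It read 13.08, 11.16 and 8.96 in Got-22 and 4.29, 4.1 and 4.25 in Ag-0, so that every Ag-0 array was at the floor while the Got-22 arrays were high and widely spread. The difference was 6.86 ± 1.57 (SE; limma adjusted p = 0.0107), and it was 5.85 with adjusted p = 0.0765 without Got-22 wet replicate 1. On dry arrays Ag-0 remained at 3.85 and 4.31, and Got-22 read 6.85, 12.35 and 5.24. Defensin copies of nearly the same sequence may share its probes.

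PDF1.2 was the only call among 33 jasmonate and ethylene loci (3.03%, against 2.78% of all loci). ERF1, an ethylene response factor, differed by 0.76 ± 0.37 (limma adjusted p = 0.379). Of 36 salicylic acid loci 0 were called by limma, with 2 at an unadjusted p under 0.05. In 0 all Got-22 arrays lay below all Ag-0 arrays (10.7% of all loci did) and in 6 they lay above (9.66% of all loci did). WRKY70, one of these, read 10.49, 10.37 and 10.87 in Got-22 and 9.73, 9.92 and 10.03 in Ag-0 (0.68 ± 0.41; 0.529). Limma also called 0 of 26 flavonoid loci, 0 of 25 clock loci, 0 of 9 terpene synthases and 0 of 76 mitochondrial loci. At an unadjusted p under 0.05 these lists held 4, 0, 1 and 3 loci, beside 2790 of all 21164 loci.

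In the flowering list, 0 of 29 loci were higher and 2 lower in Got-22 (6.9% called, against 2.78% of all loci). MAF5, a MADS-box repressor related to FLC, read 4.0, 4.15 and 3.95 in Got-22 and 5.79, 5.71 and 5.94 in Ag-0. Only Ag-0 was above the floor, since the other 5 accessions averaged 3.87 to 4.13. The difference was -1.78 ± 0.15 (SE; limma adjusted p = 1.34e-09) and -1.89 ± 0.16 on dry arrays. FCA, of the autonomous pathway that lowers FLC, differed by -0.61 ± 0.17 (0.0493) and lost its call without any of the 6 wet arrays (adjusted p up to 0.156).

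FLC itself, the central repressor lifted by cold, read 9.63, 9.89 and 9.79 in Got-22 and 10.51, 10.82 and 10.62 in Ag-0. The arrays did not overlap, but the shared spread left the difference of -0.88 ± 0.72 (SE) short of the threshold (limma adjusted p = 0.697). On the 6 arrays alone, without the spread of the other groups, FLC passed (limma adjusted p = 0.0276). FRI, its activator, differed by 0.14 ± 0.08 (0.527), and FT and CO lay at 4.02 to 4.21 and 4.02 to 4.17 over the 6 arrays, near the floor. ACD6, a locus at which accessions vary in growth and cell death, differed by -0.03 (0.995), with overlapping arrays.

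Of 27 cold and drought loci 2 were higher and 0 lower in Got-22 (7.41% called, against 2.78% of all loci). CBF1, an activator of cold-responsive genes, read 10.17, 10.70 and 10.71 in Got-22 and 9.93, 8.89 and 8.78 in Ag-0 (1.33 ± 0.35, SE; limma adjusted p = 0.0345), and its neighbour CBF2 differed by 0.85 ± 0.24 (0.0455) with overlapping arrays. Both calls ended without Got-22 wet replicate 2 or 3 or Ag-0 wet replicate 2 or 3, with limma adjusted p up to 0.182 for CBF1 and 0.201 for CBF2, and close copies of these genes may share probe signal. The list median was 0.36, and array means of the list overlapped, at 7.90, 8.58 and 8.39 in Got-22 and 8.03, 7.59 and 7.63 in Ag-0.

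DREB1A, another copy of that cluster, differed by 1.48 ± 0.42 and just missed the threshold (0.0506). LTI78, also known as a reporter of cold and osmotic stress, had 9.98, 11.98 and 11.12 in Got-22 and 9.45, 8.21 and 8.57 in Ag-0 (2.29 ± 0.68, SE; limma adjusted p = 0.0687). Of the list, 22 of 27 differences were positive on wet arrays and 18 of 27 on dry arrays, where the median was 0.08 and limma called 0 (1 at an unadjusted p under 0.05).

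Lipid transfer proteins of the cuticle list included 1 of the largest differences. LTP3 read 10.13, 9.75 and 9.51 in Got-22 and 5.99, 4.19 and 6.37 in Ag-0 (4.28 ± 0.91, SE; limma adjusted p = 0.00563). All Got-22 arrays were far above Ag-0, and without Ag-0 wet replicate 2, the lowest, the adjusted p was 0.0576. On dry arrays both accessions were high, with 11.25, 10.79 and 9.76 in Got-22 and 9.77 and 10.31 in Ag-0. The change of the difference with soil water was 3.72 ± 1.36 (SE; limma adjusted p = 0.701). LTP4, a close copy that may share probe signal, differed by 3.74 ± 1.07 (0.0542). Of 18 loci of the cuticle list 1 was higher and 0 lower (5.56% called, against 2.78% of all loci). LTP (AT2G15050), a lipid transfer locus not among these calls, was called lower in Got-22, by -1.07 ± 0.27 (SE, limma adjusted p = 0.0208).

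Among other named loci higher in Got-22 was MYB47, a MYB transcription factor, with 7.05, 7.56 and 7.58 in Got-22 and 4.07, 4.44 and 3.93 in Ag-0 (3.25 ± 0.50, SE; limma adjusted p = 0.000107). Got-22 was the highest and Ag-0 the lowest of the 7. CIPK25, a kinase regulated by calcineurin B-like calcium sensors, read 7.27, 8.97 and 8.38 in Got-22 and 6.10, 5.85 and 5.90 in Ag-0 (2.26 ± 0.49; limma adjusted p = 0.00729, and up to 0.0753 without Got-22 wet replicate 2 or on the 6 arrays alone). Of loci without a symbol, AT4G21640 (4.91 ± 0.40), AT3G19520 (3.58 ± 0.17) and AT4G16920 (3.12 ± 0.29) were higher with limma adjusted p of at most 2.15e-08. AT1G54020 (2.98 ± 0.80) and AT5G55420 (2.97 ± 0.76) were higher too, but their calls ended without Got-22 wet replicate 1 and without any Ag-0 wet array. AT1G54020 also lost it without Got-22 wet replicate 2 and AT5G55420 without replicate 3 (limma adjusted p up to 0.293 and 0.162). AT3G62550 averaged 10.18 in Got-22 and 6.60 in Ag-0 (3.58 ± 0.53, SE), with 10.26 to 11.64 in the other accessions, so that Ag-0 alone was low.

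Named loci lower in Got-22 included the serine carboxypeptidase-like pair SCPL11 and SCPL13. SCPL11 read 4.97, 4.56 and 4.3 in Got-22 and 7.41, 7.28 and 7.56 in Ag-0 (-2.81 ± 0.40, SE; limma adjusted p = 3.09e-05). SCPL13 read 5.03, 5.64 and 5.48 in Got-22 and 8.5, 8.42 and 8.5 in Ag-0 (-3.09 ± 0.50; 0.000249). Both were low on all Got-22 arrays, and they are next to each other on chromosome 2. The cytochrome P450 gene CYP71B4 differed by -3.14 ± 0.57 and the purple acid phosphatase gene PAP3 by -3.07 ± 0.64, with limma adjusted p of 0.00108 and 0.0045. Of loci without a symbol, AT2G32160 (-3.85 ± 0.33), AT1G65370 (-3.26 ± 0.26) and AT5G64870 (-3.0 ± 0.49) were lower, with limma adjusted p of at most 0.000251.

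Starch loci gave 0 higher and 2 lower of 28 (7.14% called, against 2.78% of all loci). ISA1, a debranching enzyme of starch synthesis, differed by -0.78 ± 0.21 (0.0407) and QQS, an Arabidopsis orphan gene that affects starch content, by -1.10 ± 0.31 (0.0467). Both lost their calls without Got-22 wet replicate 1 or 2 or Ag-0 wet replicate 2 or 3, and ISA1 also without Ag-0 wet replicate 1, with adjusted p up to 0.209 for ISA1 and 0.3 for QQS. QQS was low in both, at a mean of 4.28 in Got-22 and 5.38 in Ag-0, beside 9.43 in Eden-1 and 9.72 in Tamm-2. The chaperone HSP101, which rescues aggregated proteins, was the 1 called of 18 heat shock loci (5.56%, against 2.78% of all loci). It differed by -0.80 ± 0.17 (limma adjusted p = 0.00619, and up to 0.182 without Got-22 wet replicate 2, without Ag-0 wet replicate 3 or on the 6 arrays alone).

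Of 28 mineral nutrition loci limma called 0, with 4 at an unadjusted p under 0.05. Some members varied strongly between replicates. The iron superoxide dismutase gene FSD1, which varied within both accessions, read 9.87, 12.46 and 10.38 in Got-22 and 8.46, 4.87 and 5.10 in Ag-0 (4.76 ± 1.46, SE; limma adjusted p = 0.0805). The copper and zinc enzyme CSD2 read 11.47, 8.34 and 11.26 in Got-22 and 11.88, 11.98 and 11.88 in Ag-0. Got-22 wet replicate 2 was thus the highest array for FSD1 and the lowest for CSD2. It was also the lowest for CCS, the copper chaperone of CSD2, with 6.39 against 9.22 and 9.41 on the other Got-22 arrays and 9.25 to 9.57 in Ag-0.

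The listed photosynthesis loci were lower in Got-22 by a small amount throughout, without any reaching the threshold. Outside the list, limma did call Lhca5 (-1.27 ± 0.35, SE, adjusted p = 0.0462) and PnsB5 (-2.01 ± 0.51, 0.0264) lower. Photosynthesis loci outside the list were not counted by direction. The list holds 27 measured light-harvesting, photosystem and Rubisco-related loci, with 0 calls by limma and a smallest adjusted p of 0.362. At an unadjusted p under 0.05 it held 2 loci, beside 2790 of all 21164 loci. All 27 differences were negative, with a median of -0.38, while the median over all loci was 0.001. At 16 loci every Got-22 array lay below every Ag-0 array (59.3%, beside 10.7% of all loci). PSAN, a photosystem I subunit, read 11.44, 11.99 and 11.63 in Got-22 and 12.64, 12.33 and 12.71 in Ag-0 (-0.88 ± 0.42, SE). Loci of this list are known to be expressed together, so they are not independent of each other.

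The pattern was not seen in dry soil, where 24 of the 27 differences were positive and their median was 0.12. Array means of the list there were 12.72, 12.45 and 12.78 in Got-22 and 12.39 and 12.63 in Ag-0, which overlap. Array means of some marker lists also lay lower on wet Got-22 arrays. They were 5.37 to 5.47 in Got-22 and 5.59 to 5.72 in Ag-0 for 9 dividing-cell loci, and 4.84 to 4.89 in Got-22 and 4.92 to 5.23 in Ag-0 for 11 guard-cell loci. For 9 root loci, close to the floor, they were 4.37 to 4.41 in Got-22 and 4.56 to 4.67 in Ag-0. Array means of the phloem, trichome and flower lists overlapped, with median differences of 0.08, -0.02 and -0.05. In dry soil the median difference was 0.24 for dividing-cell, 0.09 for guard-cell and -0.02 for root loci. The part of cell make-up in these differences was not tested. The 1 marker called was PYK10, a beta-glucosidase of roots and seedlings, whose difference of -0.84 ± 0.23 (SE; limma adjusted p = 0.041) rested on a value of 5.99 on Ag-0 wet replicate 1 and was -0.30 without it. Its call also ended without any Got-22 wet array or Ag-0 wet replicate 2 (adjusted p up to 0.466). Limma called 0 of 10 trichome and 0 of 6 phloem markers, with 0 and 1 at an unadjusted p under 0.05.

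**Figure D4:**
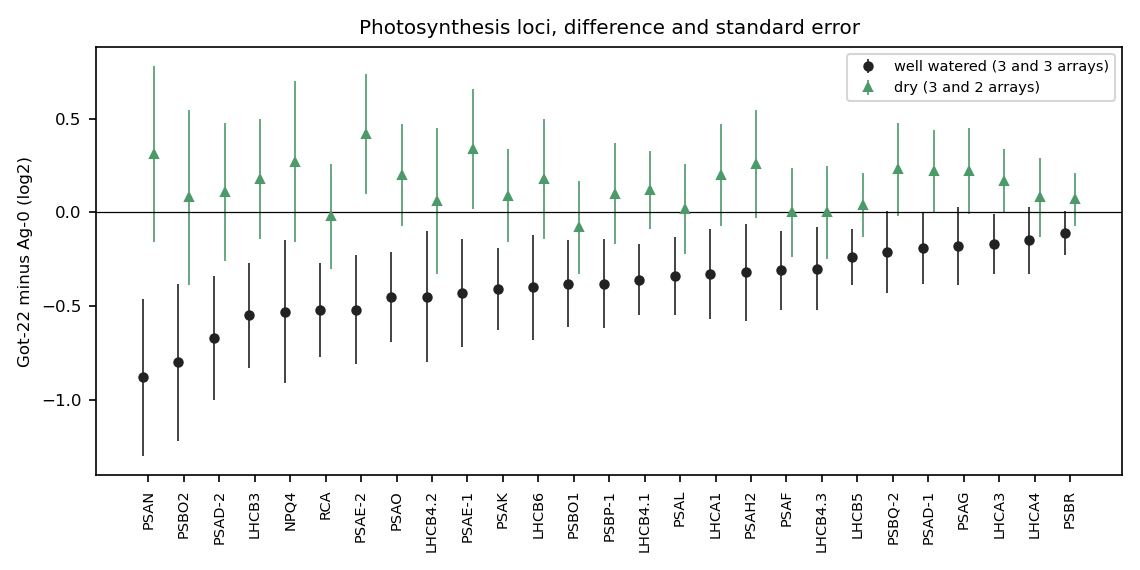
Difference Got-22 minus Ag-0 (log2, points) with its standard error (bars) for the 27 photosynthesis loci, on wet arrays (circles) and dry arrays (triangles). All wet differences are below 0 and 24 dry differences are above it.

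The dry arrays gave the same direction for most wet calls. Their values are separate from the wet means, but all 41 arrays shared the estimate of spread behind the calls. Of the 589 loci called in wet soil 550 (93.4%) had the same sign in dry soil, compared with 56% of loci not called. A fit on the 21 wet arrays alone called 553 loci, 442 of them among the 589, and 519 of the 553 (93.9%) had the same sign in dry soil. Limma called 344 loci (1.63%) in dry soil, 145 higher (0.685%) and 199 lower (0.94%) in Got-22. The overlap of 186 loci with the same sign was 31.6% of wet and 54.1% of dry calls, and 0 loci were called in opposite directions. The dry call has fewer arrays, 3 and 2, so a locus that misses it there has not been shown to be equal.

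Of the 240 loci with at least 1 log2 unit, 237 kept their sign on dry arrays, 184 had a dry difference of at least 50% of the wet one, and all 50 loci with at least 2 units kept their sign. The 3 that changed sign were NAM, a NAC transcription factor, HB1, a haemoglobin gene, and CCB3, of cytochrome b6f assembly. Their wet differences were 1.29, -1.32 and -1.54, with limma adjusted p of 0.045, 0.0348 and 0.0418. Whether the difference depended on soil water was tested directly. Limma called 0 loci for this interaction (1272 of 21164 loci had an unadjusted p under 0.05), and the smallest adjusted p was 0.238, at AT4G31860. Without Got-22 wet replicate 1 it called 11, among them OST1, a kinase of stomatal abscisic acid signalling (wet minus dry difference of 1.56, limma adjusted p = 0.0371).

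**Figure D5:**
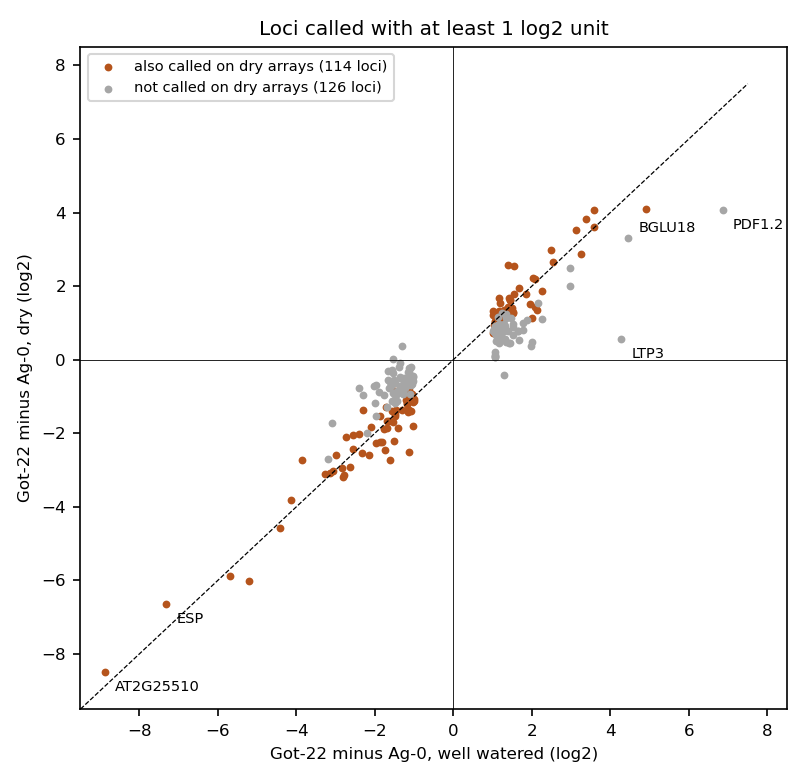
Got-22 minus Ag-0 (log2) in well-watered soil (horizontal) and dry soil (vertical) for the 240 loci called with at least 1 log2 unit in wet soil; the 114 also called in dry soil are orange, the others grey, and the dashed line marks equal differences. ESP and AT2G25510 lie near the line and LTP3 far below it.

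A stricter description looked for loci near the floor in one accession and well expressed in the other. All 3 arrays of one had to be below the 25th percentile of the table (4.38) and all 3 of the other above its median (5.71). There were 9 such loci (0.0425%). Limma called each, but the limits use the same 6 wet arrays, so these calls are not separate support. PDF1.2, AT4G21640, AT3G19520, AT4G02540 and AT1G03710 were low in Ag-0, and AT2G25510, AT2G32160, AT4G19470 and MAF5 were low in Got-22. At AT1G03710 the wet means of all other accessions were also below 4.38, so Got-22 alone was high. At AT4G19470 and MAF5 they were below it too, so Ag-0 alone was high. Only at PDF1.2 were the other means all above 5.71. On dry arrays 4 of the 9 met both limits again. AT4G19470, for example, had 4.05, 4.15 and 4.21 in Got-22 and 6.64, 7.11 and 7.16 in Ag-0 (-2.83 ± 0.13, SE; limma adjusted p = 6.86e-16).

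Large differences were spread over the genome, from 0.815% of measured loci on chromosome 3 to 1.27% on chromosome 1. Of 237 such loci placed in gene order, 16 had a neighbouring locus that also differed by at least 1 log2 unit (6.75%, beside 2.17% of other loci), and no run of 3 was found. Direction was shared in 10 of the 16, including SCPL11 and SCPL13. Both members of each neighbouring pair are counted, and no background for shared direction was computed. Neighbours are the next measured loci, so unmeasured genes may lie between them. AT4G21640 and AT4G21650 went opposite ways, with 9.38, 9.62 and 8.57 in Got-22 and 4.24, 4.31 and 4.28 in Ag-0 for AT4G21640. AT4G21650 averaged 3.98 in Got-22 and 5.63 in Ag-0, a difference of -1.65 (limma adjusted p = 0.032).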

How the data were processed

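For each locus and array the authors deposited a log2 value of rosette leaf RNA; per the submitters' processing notes RMA and MAS5 were involved, with neither their roles nor versions stated. That the unit is log2 was read from the values (3.35 to 14.3, array medians 5.66 to 5.79). The array's probes, genome build, detection calls and treatment of probes that differ in sequence between accessions are not stated in the sources. The number of arrays limits the precision. Replicates are biological per the design text; whether they came from separate plantings is not stated.

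No locus was removed, no floor was set and nothing was renormalised. Limma 3.58.1 in R 4.3.3 fitted a mean for each of 14 combinations of 7 accessions and water level over 41 arrays (27 residual, 2.06 prior degrees of freedom). Contrasts are Got-22 minus Ag-0, two-sided, with p adjusted by Benjamini-Hochberg over 21164 loci at 0.05. The fit was tested on simulated data. Names and gene order came from a TAIR10.1 gene table that held 20972 of the loci; coordinates and sequences are not used here. Of the loci, 26 share identical values with another, none of them named here.

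Named loci are the 15 largest called, non-overlapping differences in each direction, the 10 smallest p, up to 4 called members of each list, the 5 largest per direction among loci at the floor in either accession, and AOP2, AOP3, MAM1, AT2G25450, ESP, ESM1, FLC, FRI, ACD6 and QQS. Other list members and AT4G21650, NAM, HB1, CCB3, AT4G31860, OST1, Lhca5, PnsB5 and LTP were named after their values were seen. Comparison, lists and rules were chosen with earlier results of these data known. Same-numbered replicates deviated with correlations of -0.13, 0.06 and 0.05, and differently numbered ones with -0.19 to 0.14. With 3 arrays a group these values cannot settle whether numbers pair arrays. The main fit used no pairing. Alternatives were other normalisations, a filter, weights, a block, fewer arrays and leaving out each array.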

Additional observations from a re-analysis of the deposited data

How the results depend on the processing

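The 589 wet calls became 969 with array quality weights and 344 on the 6 arrays of both accessions alone, and ranged from 348 to 440 without each of the 6 wet arrays. The lowest of these, 348, was without Got-22 wet replicate 2; without Ag-0 wet replicates 1, 2 and 3 the counts were 365, 375 and 391. Under the other settings they stayed between 552 and 802. The 240 calls with at least 1 log2 unit ranged from 189 to 308. Dry calls (344) became 652 with quality weights and ranged from 133 (without Ag-0 dry replicate 3, which leaves 1 array assumed to vary like the other groups) to 268 without each dry array. The interaction count of 0 ranged from 0 to 11 without single arrays: 11 without Got-22 wet replicate 1, 1 without Got-22 wet replicate 2 (RLP52) and 2 without Ag-0 wet replicate 3. With the replicate block, wet calls were 618, dry calls 333 and interaction calls 0; CBF2, ISA1 and QQS lost their calls with it. The 9 loci at the floor in either accession ranged from 8 to 11. Of 46 called named loci, 27 kept the call in every alternative run and 0 changed sign; the uncalled AOP2, AOP3 and ACD6 lay on both sides of 0. The uncalled FLC passed on the 6 arrays alone (limma adjusted p = 0.0276). The median difference over all loci was 0.004 with quantile normalisation and -0.014 with centred arrays, beside 0.001 in the main fit. The cause of these changes was not tested. With 3 arrays a group and a spread shared over all groups, a difference that separates the arrays can still miss the threshold, as FLC did.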
